A study of Mus musculus with 21 samples.

Results

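The change that loss of Mboat7 in hepatocytes made on both diets was examined by RNA-seq of whole mouse liver. All 21 of the 21 libraries entered, as the genotype term of a model of genotype plus diet fitted to the read counts of each gene. Genes were called where the p, adjusted by Benjamini and Hochberg over all genes tested, was under 0.05, and a called gene was counted as shared when the fold change had the same sign on each diet taken alone, with an unadjusted p under 0.05 on each. The question of the comparison was which genes moved the same way whether the liver was fed normally or under dietary stress.

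Control mice (WT) and mice with Mboat7 deleted in hepatocytes (KO) were either 10 weeks old on chow (6 WT and 7 KO libraries) or 6 to 8 weeks old at the start of 6 weeks on a diet rich in fat, without choline and with little methionine (HFMCD; 4 WT and 4 KO libraries). The labels also write that diet as HFCDD. Diet and age at harvest therefore cannot be told apart, but each KO library was set against WT libraries of its own diet. The labels limit the deletion to hepatocytes, and the other cells of a whole liver keep the gene. The driver of the deletion and the mouse strain are not given in the sources used here, nor is anything beyond a separate number in each title to show that the replicates were separate mice. If they were not, the p-values measure only the spread between these samples.

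Mboat7 encodes an acyltransferase of the endoplasmic reticulum that places arachidonic acid on lysophosphatidylinositol, which keeps phosphatidylinositol rich in that fatty acid. Hepatocytes burn fatty acids by beta oxidation in mitochondria and peroxisomes, a programme driven largely by the nuclear receptor PPAR alpha, or store them as triglyceride in lipid droplets. Loss of Mboat7 in hepatocytes is known to give fatty liver in mice.

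The libraries held 17502231 to 25822972 counts, and none of 22 hepatocyte genes was at 0 in all libraries of a group. Some chow libraries carried transcripts foreign to hepatocytes. Dmbt1, a mucosal glycoprotein, stood at 95.6 and 54.6 CPM (counts scaled to a common library total) in KO chow replicates 1 and 7 and at 41.7 and 27.6 CPM in WT chow replicates 3 and 5, against at most 0.596 CPM in every other library. KO chow replicate 7 also held the muscle gene Ttn at 331 CPM, and KO chow replicate 4 had the highest summed erythroid markers, 197 CPM. Calls are therefore also given without KO chow replicates 1 and 7, for genes in 1 place below and for lists beside their counts. That removal takes out KO libraries only. For several lists the count without all 4 libraries rich in Dmbt1, KO and WT, is given too.

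Of 15677 genes tested, 230 (1.47%) were called for the KO term, 74 higher (0.472%) and 156 lower (0.995%) in KO. Of these, 150 (0.957% of the genes tested) were shared by both diets, 44 of them higher (0.281%) and the rest lower (0.676%). Another 77 called genes had the same sign on both diets but missed the unadjusted p on 1 of them, and 3 had opposite signs. The libraries of both diets enter the KO term, so these counts describe the calls and do not test sharing. A test that asks for a change on each diet is given below. The changes were small: the median log2 fold change of the genes called lower was -0.37, and 30 of the 230 exceeded 1 in size.

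**Figure D1:**
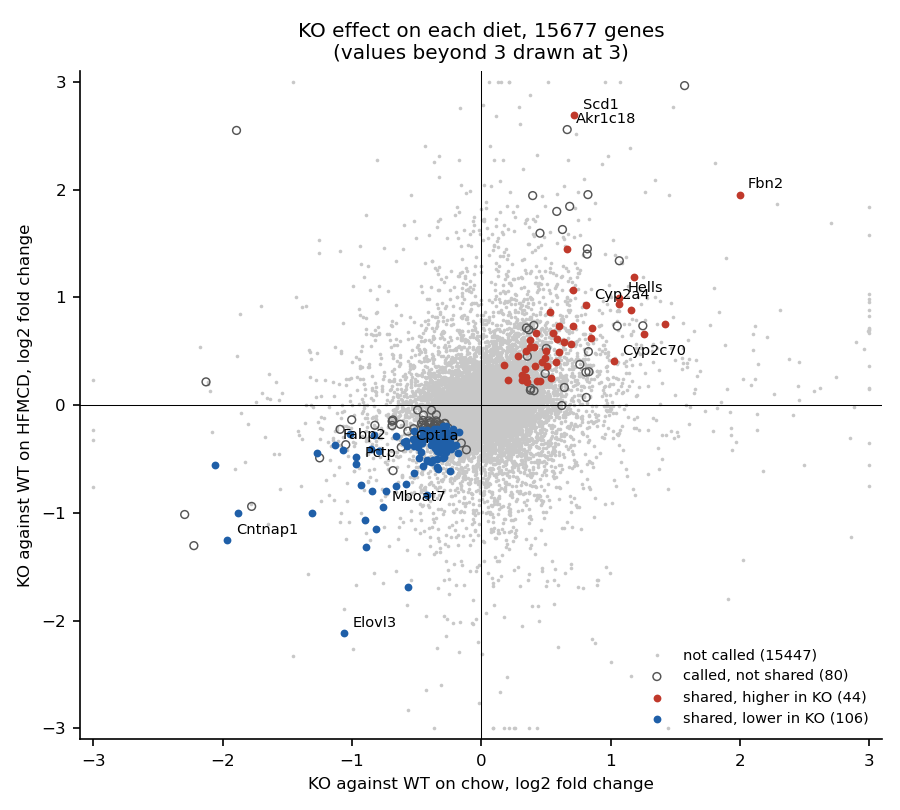
Log2 fold change of KO against WT on chow (horizontal) and on HFMCD (vertical) for each of the 15677 genes tested, with values beyond 3 drawn at 3. The shared lower genes lie close together below 0 on both axes, and the 44 shared higher genes are more spread.

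Each diet alone gave a different picture. On chow 2 genes were called (0.0128%), although 830 genes other than Mboat7 had an unadjusted p under 0.01, and on HFMCD 303 were called (1.93%). The diets share no library, so the sign of a gene chosen on one diet can be read on the other, where 56.75% of all genes tested had the same sign on both. Of the 529 genes lower on chow at an unadjusted p under 0.01, 73.16% were also lower on HFMCD, and without KO chow replicates 1 and 7 the share was 69.08% of 414. Of the 301 genes higher on chow at that p, 53.16% were also higher on HFMCD, or 48.45% of 258 without the 2 libraries, beside 49.19% of all genes tested that were positive on HFMCD. Of the 224 genes called higher on HFMCD alone, 81.25% were also higher on chow, beside 53.15% of all genes tested. The share of the 224 was 33.04% without KO chow replicates 1 and 7, and 47.77% without all 4 libraries rich in Dmbt1. Of the 78 other than Mboat7 called lower on HFMCD alone, 58.97% were also lower on chow. That was 55.13% without KO chow replicates 1 and 7, and 52.56% without the 4. In numbers, genes raised on HFMCD and also higher on chow went from 182 to 74 without KO chow replicates 1 and 7, and genes lowered on both from 46 to 43.

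A stricter test, which takes the larger of the p-values from both diets, called 1 gene, Mboat7 (0.00638%), with 305 genes at an unadjusted p under 0.05. By edgeR no gene was called (0%) for a KO effect that differed from diet to diet. An unadjusted p under 0.05 for that difference was found for 1581 genes, limma-voom called 10 and DESeq2 called 97. Of the 150 shared genes, limma-voom called 0 for that difference and DESeq2 called 1.

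Leaving out 1 library moved the number of called genes between 47 and 360. The number fell by more than 1.5 times without WT chow replicate 5 (47 called), KO chow replicate 6 (60), KO chow replicate 1 (79), WT HFMCD replicate 3 (98), WT HFMCD replicate 2 (113), KO HFMCD replicate 4 (128), WT HFMCD replicate 1 (131), KO chow replicate 4 (132) and WT chow replicate 6 (143). It rose by as much without WT chow replicate 3 (360). Of the 230 genes, 40 remained called in each of these 21 fits, and 33 were shared each time. All 230 kept their sign in each. The fits reuse most of the libraries by which the 230 were chosen, so the kept sign is no independent support. Without KO chow replicates 1 and 7 together 36 genes were called (13 higher and 23 lower of the 15677 tested), all of them among the 230. Without all 4 libraries rich in Dmbt1 87 genes were called (36 higher and 51 lower), 67 of them among the 230. Of the genes described below, those that remained called in each of the 21 fits were Mboat7, Acaa1a, Acadm, Akr1c18, Bhmt2, Cideb, Cntnap1, Cpox, Cpt1a, Cyp2a4, Cyp2c70, Ddit4l, Decr2, Elovl3, Ephx2, Fabp2, Fam169b, Fbn2, Fgf1, Gcgr, Hells, Hsd17b4, Hykk, Ncaph, Pcolce, Pctp, Pdgfd, Ppa1, Sec16b, Slc6a16, Suox and Zfhx2. All of these but Acaa1a, Cntnap1, Decr2, Fam169b, Gcgr, Pctp and Pdgfd were also called without KO chow replicates 1 and 7 together. Every other called gene described below lost its call in at least 1 of the 21 fits and without the 2 libraries.

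**Figure D2:**
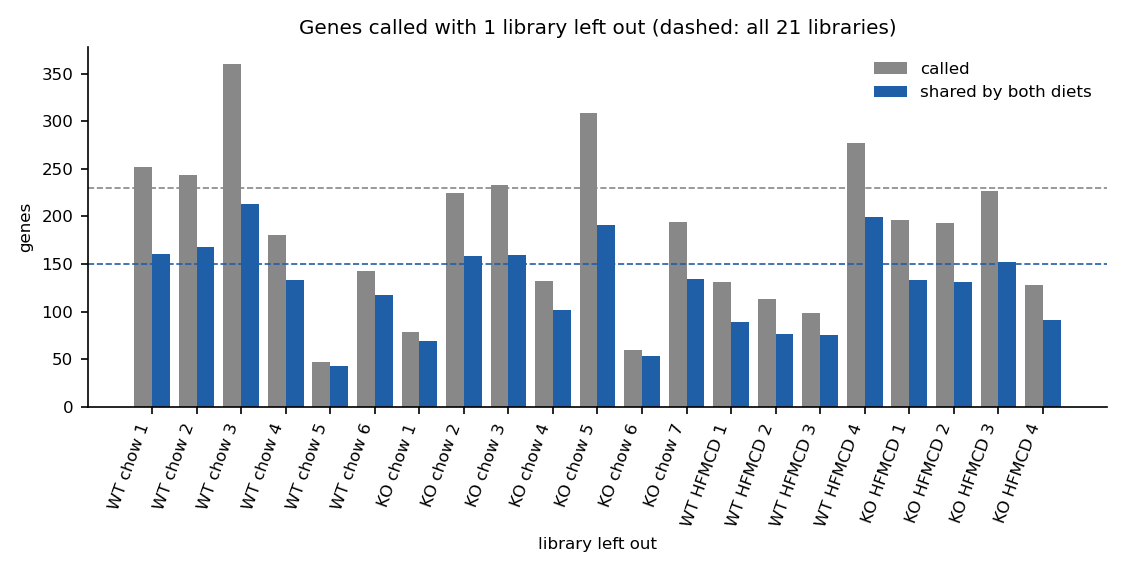
Number of genes called for the KO term (grey) and shared by both diets (blue) when the library on the horizontal axis was left out, with dashed lines at the 230 and 150 found with all 21. Calls ranged from 47 without WT chow replicate 5 to 360 without WT chow replicate 3.

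Mboat7 (chromosome 7, 3677789 to 3693523, minus strand, GRCm38) was measured first, as the check of the genotype labels. On chow it stood at 33.0, 36.1 and 39.7 CPM (lowest, median and highest) in WT and at 18.8, 21.8 and 24.1 CPM in KO. On HFMCD the WT libraries held 34.7, 35.6, 36.6 and 38.1 CPM and the KO libraries 20.8, 15.8, 18.8 and 20.2 CPM. No KO library reached a WT library of its diet. The log2 fold change was -0.83 (SE 0.0595, adjusted p = 4.84e-09). Exons of Mboat7 overlap Tsen34 on the opposite strand, and as the counting is not stated to use strand, reads of this pair cannot be told apart.

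For 10 genes (0.0638% of those tested) KO and WT libraries did not overlap on either diet and moved in 1 common direction. Higher in KO were Cyp2c70, Hells, Pcolce and Topbp1, and lower were Mboat7, Cpt1a, Cpox, Hykk and Slc6a16, all shared. The tenth, Bscl2, the seipin gene of lipid droplet formation, missed the call (log2 fold change -0.21, SE 0.0549, adjusted p = 0.0533). In contrast, 2 genes had no overlap on either diet but in opposite directions: Lrrc14b was 0.88 higher on chow and -0.48 on HFMCD on the log2 scale, and Ift88, a protein of cilium assembly, was -0.29 on chow and 0.14 on HFMCD.

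Sequences at the start sites were read for shared genes with a match to a liver-relevant motif. PPAR alpha binds with its partner to DR1 elements, searched here as 2 copies of AGGTCA with 1 base between and up to 2 mismatches, and HNF4 alpha, which sets hepatocyte identity, to sites searched here as CAAAGTCCA. Both strands of 300 bases (250 before to 50 after the start; RefSeq, GRCm38.p6) were searched. Capitals mark the match. Creb3l3 is shown at one of its 2 listed start sites (chr10:81092542-81092841, minus strand), Slc25a20 at chr9:108661886-108662185 (plus strand), Cyp2c70 at chr19:40187237-40187536 (minus strand) and Sec16b at one of its 2 listed starts (chr1:157525920-157526219, plus strand).
Creb3l3: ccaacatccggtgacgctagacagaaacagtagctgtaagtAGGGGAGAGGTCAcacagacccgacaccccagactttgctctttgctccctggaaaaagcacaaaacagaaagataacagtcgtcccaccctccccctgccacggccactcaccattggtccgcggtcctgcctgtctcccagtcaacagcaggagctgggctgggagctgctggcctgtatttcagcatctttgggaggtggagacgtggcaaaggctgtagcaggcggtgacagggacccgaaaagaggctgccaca
Slc25a20: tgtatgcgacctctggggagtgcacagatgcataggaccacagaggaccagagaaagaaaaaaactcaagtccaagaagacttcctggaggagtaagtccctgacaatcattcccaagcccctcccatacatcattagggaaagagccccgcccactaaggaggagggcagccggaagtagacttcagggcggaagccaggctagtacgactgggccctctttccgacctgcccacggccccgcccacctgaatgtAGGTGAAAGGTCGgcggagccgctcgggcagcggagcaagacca
Cyp2c70: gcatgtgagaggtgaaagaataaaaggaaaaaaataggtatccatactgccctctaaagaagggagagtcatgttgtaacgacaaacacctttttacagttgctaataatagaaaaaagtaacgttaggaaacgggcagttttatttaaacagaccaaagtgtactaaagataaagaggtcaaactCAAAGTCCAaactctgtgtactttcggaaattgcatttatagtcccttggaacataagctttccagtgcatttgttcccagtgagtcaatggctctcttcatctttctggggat
Sec16b: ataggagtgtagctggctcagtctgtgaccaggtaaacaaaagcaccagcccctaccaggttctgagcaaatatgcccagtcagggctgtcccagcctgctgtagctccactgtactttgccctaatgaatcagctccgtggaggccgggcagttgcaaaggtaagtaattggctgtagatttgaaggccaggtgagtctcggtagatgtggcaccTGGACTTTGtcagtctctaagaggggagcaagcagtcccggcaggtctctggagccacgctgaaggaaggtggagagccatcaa

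A DR1 match lay in the promoter of 7 of the 81 shared lower genes that had one (8.64%), of 2 of 34 shared higher genes (5.88%), and of 439 of 11311 genes tested (3.88%; 4.4% of all 27025 genes in the table). Creb3l3, a liver transcription factor of the fasting response, and Slc25a20, the carnitine carrier of mitochondria, were among the lower genes. In the oxidation list itself 2 of 20 genes with a promoter (10%) held a DR1 match, Slc25a20 and Etfa, and Etfa was not called. For the HNF4 element the counts were 4 of 115 shared genes (3.48%) against 78 of 11311 tested (0.69%), and the 4 were Aadat, Aspdh, Sec16b and Cyp2c70. The other motifs searched were the E-box CACGTG (13% of shared and 11.3% of tested genes), the CRE TGACGTCA (2.61% and 3.35%), the AP-1 site TGANTCA (10.4% and 6.6%), the antioxidant element TGACNNNGC (18.3% and 16.6%) and the SREBP element TCACNCCAC (4.35% and 1.47%). Matches of different motifs can overlap. They describe these letters only, and no binding was measured.

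Fatty acid oxidation was the group in which shared genes were most frequent among those described here. Of 27 genes of beta oxidation and ketogenesis, 13 fell in KO (48.1%, against 0.995% of all genes tested), 10 of them as shared genes, and none rose. The log2 fold change was negative on both diets for 26 of the 27 (27.2% of all genes tested), with medians of -0.29 on chow and -0.30 on HFMCD, against 0.02 and -0.00339 over all genes. The exception was Etfa, an electron carrier subunit of the pathway, at 7.21e-05. The list had been chosen with earlier results of these data known, so its count is a description.

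**Figure D3:**
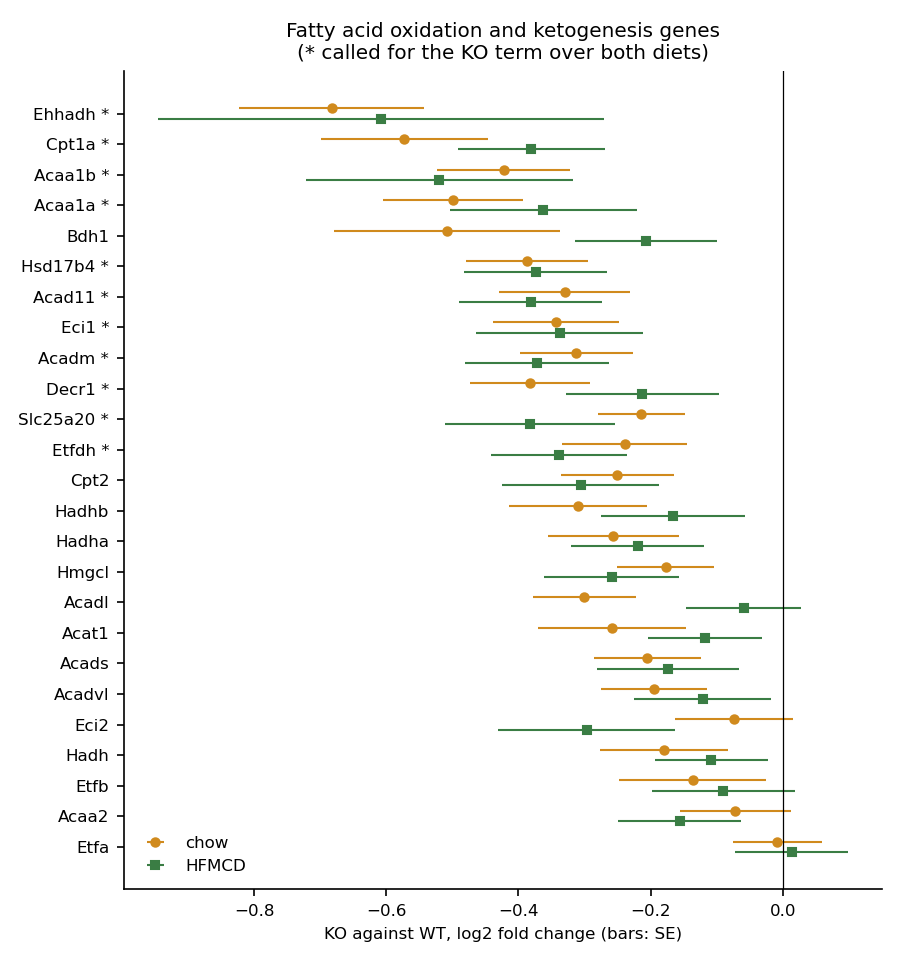
Log2 fold change of KO against WT on chow (circles) and HFMCD (squares) for 25 of the 27 genes of fatty acid oxidation and ketogenesis, with standard errors as bars and called genes starred. Nearly every point lies left of 0 on both diets, with Ehhadh and Cpt1a farthest and Etfa at 0.

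Entry of fatty acids into mitochondria runs through carnitine palmitoyltransferase 1, and Cpt1a (chromosome 19, 3322334 to 3385733, plus strand, GRCm38) encodes its liver form. It stood at 584, 611 and 941 CPM (lowest, median, highest) in WT and 354, 464 and 545 CPM in KO on chow. On HFMCD the WT libraries held 961, 753, 723 and 667 CPM and the KO libraries 624, 628, 547 and 599 CPM. All KO libraries lay below all WT libraries of their diet. The log2 fold change was -0.50 (SE 0.0943, adjusted p = 0.0143), and Cpt1a passed with any 1 library left out and without KO chow replicates 1 and 7 (adjusted p = 0.041). Slc25a20, which carries acylcarnitines across the inner membrane, fell by 0.28 (SE 0.0662, adjusted p = 0.0346), with no overlap on chow and with overlap on HFMCD.

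Within mitochondria, Acadm, the medium-chain acyl-CoA dehydrogenase (chromosome 3, 153922357 to 153944632, minus strand, GRCm38), was at 609, 718 and 797 CPM in WT and 479, 583 and 632 CPM in KO on chow. On HFMCD it was at 600, 563, 537 and 436 CPM in WT and 450, 452, 380 and 379 CPM in KO. The groups overlapped on chow by few libraries, and on HFMCD only through WT replicate 4. Acadm fell by 0.34 on the log2 scale (SE 0.0671, adjusted p = 0.0196) and passed with any 1 library left out. Also lower were Acad11 by 0.35, Eci1, the enoyl-CoA isomerase, by 0.34, Etfdh, which passes the electrons on to ubiquinone, by 0.28, and Decr1 by 0.32. Decr1, the reductase for unsaturated fatty acids, was not shared.

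Enzymes of peroxisomal oxidation, which shortens very long and branched chains, were also among those that fell. Hsd17b4, the multifunctional enzyme after the first step, was at 733, 850 and 1023 CPM in WT and 588, 656 and 787 CPM in KO on chow. It was at 586, 567, 583 and 445 CPM in WT and 477, 403, 429 and 383 CPM in KO on HFMCD, where WT replicate 4 alone lay within the KO range. Hsd17b4 fell by 0.38 (SE 0.0705, adjusted p = 0.0143). Ehhadh, a bifunctional enzyme of the same pathway (log2 fold change -0.65), was called but not shared, since on HFMCD alone it was at -0.61 (SE 0.337). Acaa1a (-0.45) and Acaa1b (-0.46), the thiolases, were shared, although near-identical copies such as these can exchange reads in counting. Decr2, the peroxisomal dienoyl-CoA reductase, fell by 0.42 (SE 0.0845, adjusted p = 0.0202) and passed with any 1 library left out.

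WT HFMCD replicate 4 had the lowest level of the 4 WT HFMCD libraries in 24 of the 27 genes. Without it the median on HFMCD was -0.41 and 18 of the 27 were called. The count of called members was 4 without KO chow replicate 6, 5 without WT chow replicate 5, 6 without KO chow replicate 1, KO chow replicate 4 or WT HFMCD replicate 1, 7 without WT HFMCD replicate 2, WT HFMCD replicate 3 or KO HFMCD replicate 4, and 8 without WT chow replicate 4 or 6. Without KO chow replicates 1 and 7 together 3 remained called (Acadm, Cpt1a and Hsd17b4) and the median on chow was -0.27. The number of members negative on both diets stayed between 25 and 27 in all 31 alternatives that kept both diets. Those alternatives reuse the same libraries. In whole liver, fewer cells of a type and less RNA per cell cannot be told apart. The summed level of 22 hepatocyte genes ranged in chow livers over 117524 to 152181 CPM (WT) and 118156 to 146077 CPM (KO), and in HFMCD livers over 111902 to 128238 CPM (WT) and 108809 to 115950 CPM (KO). Of these 22, 0 were called, which in a list of this size is near the 1.47% of all genes tested. Their part in the result was not tested.

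Other parts of peroxisomes and mitochondria were uneven. Among 17 genes of the Pex family, which build peroxisomes, 4 fell, among them Pex11g by 0.38, Pex16 by 0.36 and Pex19 by 0.29, and 13 were negative on both diets with 0 positive on both. Over all genes tested 0.995% were called lower and 27.2% were negative on both diets. Pex16 was not shared. The family had 0 calls without KO chow replicates 1 and 7, and 0 without all 4 libraries rich in Dmbt1. Among 42 mitochondrial carriers of the Slc25 family, 6 fell, including Slc25a22, a glutamate carrier (-0.64), Slc25a13, the aspartate-glutamate carrier (-0.32), Slc25a15, the ornithine carrier (-0.36), and Slc25a10, the dicarboxylate carrier (-0.29). Of the 6, 5 were shared, and 0 were called without KO chow replicates 1 and 7 or without all 4 libraries rich in Dmbt1. Both families were listed after the calls were seen. Of 28 nuclear genes of the respiratory chain 0 were called, which in a list of this size is near the 1.47% of all genes tested. Their median was -0.01, and 10 of the 28 (35.7%) were negative on both diets.

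Of 24 PPAR alpha target genes, 2 fell (Ehhadh and Creb3l3) and 20 were negative on both diets, with a median of -0.36, against 0.995% and 27.2% of all genes tested. Ehhadh is also a member of the oxidation list. Creb3l3 was at 394, 439 and 525 CPM in WT and 336.8, 358 and 402 CPM in KO on chow, and at 371, 363, 368 and 296 CPM in WT and 310, 289, 318.4 and 254 CPM in KO on HFMCD. The groups overlapped by 1 library or few on each diet. It fell by 0.27 (SE 0.0632, adjusted p = 0.0311). Without KO chow replicates 1 and 7 neither target was called.

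Lipid handling outside oxidation held some of the largest shared changes. Elovl3, an elongase of saturated and monounsaturated chains (chromosome 19, 46131897 to 46135694, plus strand, GRCm38), stood at 3.81, 9.41 and 10.7 CPM in WT and 2.36, 4.22 and 5.98 CPM in KO on chow. On HFMCD it was at 6.47, 10.2, 7.14 and 5.35 CPM in WT and 1.87, 0.662, 2.50 and 1.74 CPM in KO. Apart from WT chow replicate 1 at 3.81 CPM, no WT library came within the KO range of its diet. Elovl3 fell by 1.45 on the log2 scale (SE 0.239, adjusted p = 0.00975) and passed with any 1 library left out.

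Scd1, the desaturase that makes monounsaturated fatty acids, moved the other way. On chow it was at 1227, 1676 and 2360 CPM in WT and 1773, 2760 and 4228 CPM in KO, with overlap. On HFMCD it was at 142, 122, 176 and 196 CPM in WT and 667, 295, 1420 and 1765 CPM in KO, with no overlap. The KO term was 1.45 (SE 0.341, adjusted p = 0.0398), from 0.72 on chow and 2.69 on HFMCD, and it passed in 11 of the 21 fits with 1 library left out. For the difference between the diets by edgeR, Scd1 had an unadjusted p of 0.000678 (adjusted p = 0.163). Srebf1, the regulator of fatty acid synthesis, rose by 0.52 (SE 0.124, adjusted p = 0.0382) and passed in 8 of the 21. Of 25 genes of fatty acid and triglyceride synthesis these were the only 2 that rose, while Elovl3 and Agpat3 fell. The list's median was -0.05, and over all genes tested 0.472% were called higher and 0.995% lower. Without KO chow replicates 1 and 7 the list had 0 higher calls and 1 lower, Elovl3. Without all 4 libraries rich in Dmbt1 it had 2 higher and 1 lower.

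The called genes of fatty acid binding, storage and phospholipid transport fell. Fabp2, a fatty acid binding protein known from the gut, was at 79.1, 130 and 191 CPM in WT and 44.9, 58.0 and 79.7 CPM in KO on chow. It was at 142, 173, 145 and 107.1 CPM in WT and 114, 101, 111 and 114 CPM in KO on HFMCD. The groups overlapped by a single library or few on each diet, and Fabp2 fell by 0.84 (SE 0.153, adjusted p = 0.0143), with -1.13 on chow and -0.37 on HFMCD. Cideb, a droplet protein that helps to load lipoproteins with lipid, fell by 0.27 (SE 0.0539, adjusted p = 0.0169). Its relative Cidec, which enlarges droplets, fell by 1.78 (SE 0.428, adjusted p = 0.0447), was not shared and passed in 6 of the 21 fits with 1 library left out. Of 19 droplet and lipolysis genes these 2 were the ones called, where 0.995% of all genes tested were called lower. Without KO chow replicates 1 and 7 Cideb alone was called. Pctp, which carries phosphatidylcholine between membranes, was at 132, 227 and 298 CPM in WT and 76.9, 123 and 146 CPM in KO on chow, and at 205, 184, 176 and 124 CPM in WT and 129, 98.2, 136 and 112 CPM in KO on HFMCD. Groups overlapped on both diets, and Pctp fell by 0.81 (SE 0.157, adjusted p = 0.0203).

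**Figure D4:**
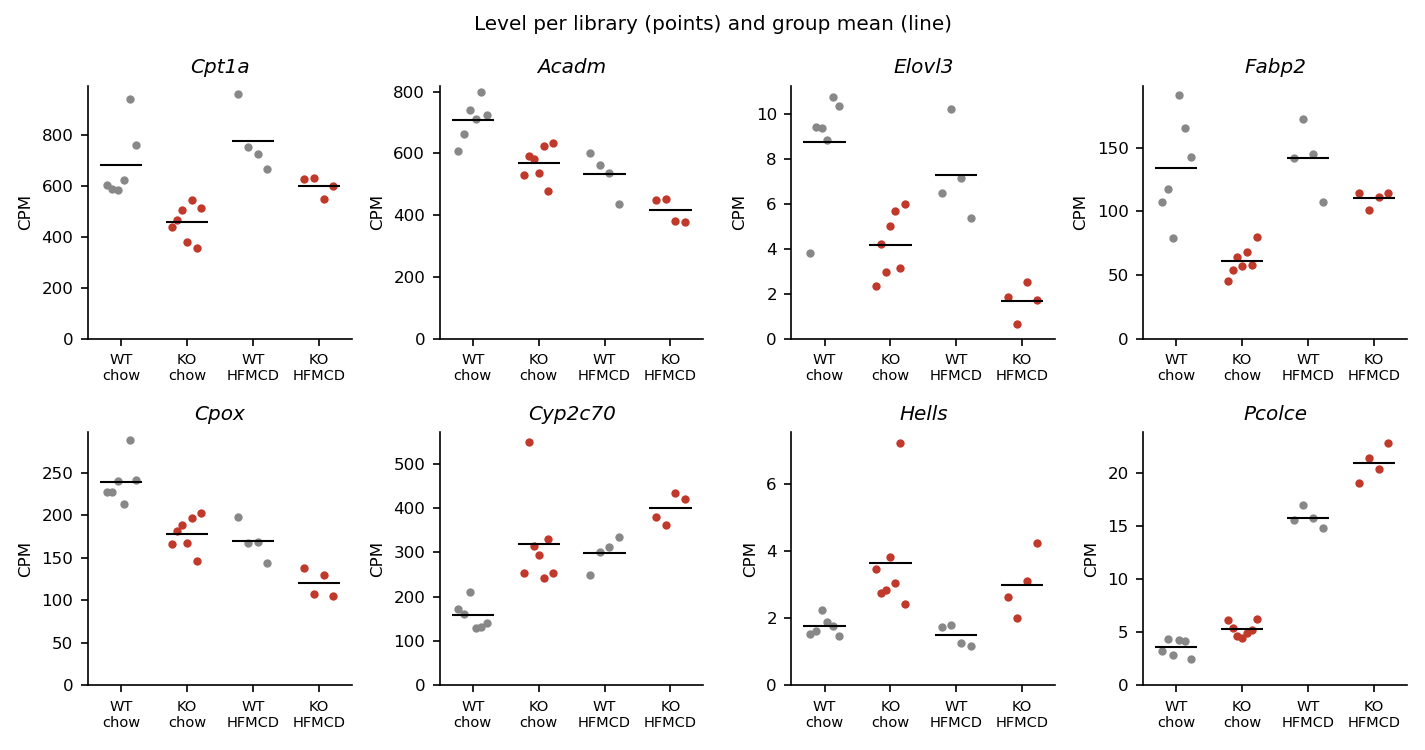
CPM of 8 genes in every library (points; grey WT, red KO) with the group mean (line), on axes that start at 0. Cpt1a, Cpox, Cyp2c70, Hells and Pcolce show KO and WT apart on both diets, whereas Acadm, Elovl3 and Fabp2 overlap by few libraries on at least 1 diet.

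Among 29 genes of phospholipid remodelling, the family of the deleted gene, 4 were lower (Mboat7, Agpat3, Lpgat1 and Pnpla7) and 1, Mboat1, was higher. Over all genes tested 0.995% were called lower and 0.472% higher. Agpat3 and Lpgat1 are acyltransferases of phospholipids, and Pnpla7, which was not shared, is a lysophospholipase. Lpgat1 passed in 5 of the 21 fits with 1 library left out, and without KO chow replicates 1 and 7 Mboat7 was the only member called. Without all 4 libraries rich in Dmbt1 2 members were called lower and 0 higher. Mboat1, a relative of Mboat7 with other lysophospholipid substrates, was at 0.147, 0.353 and 0.783 CPM in WT and 0.348, 0.588 and 1.43 CPM in KO on chow, and at 0.494, 0.586, 0.766 and 0.770 CPM in WT and 1.71, 1.95, 1.30 and 2.04 CPM in KO on HFMCD. The libraries overlapped on chow and not on HFMCD, and the KO term was 1.09 (SE 0.275, adjusted p = 0.0447), not shared, with 8 of the 21 fits passed. On chow its log2 fold change was 0.82, or 0.29 without KO chow replicates 1 and 7. Of 28 genes of phosphatidylinositol synthesis and its kinases, 0 were called, with a median of 0.03.

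Ephx2, the soluble hydrolase of fatty acid epoxides such as those of arachidonic acid, was at 1225, 1434 and 1532 CPM in WT and 958, 1076 and 1260 CPM in KO on chow. It was at 865, 779, 795 and 597 CPM in WT and 544, 407, 654 and 546 CPM in KO on HFMCD. Only WT HFMCD replicate 4 lay within the KO range on that diet. Ephx2 fell by 0.43 (SE 0.0771, adjusted p = 0.0134) and passed with any 1 library left out. Among 29 genes of arachidonate and eicosanoid metabolism it was the only one that fell, and Cyp2c70 the only one that rose. The shares over all genes tested were 0.995% called lower and 0.472% higher.

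Cyp2c70 (chromosome 19, 40153353 to 40187333, minus strand, GRCm38), whose promoter is shown above, encodes the mouse enzyme that makes muricholic acids. It was at 130, 151 and 210 CPM in WT and 242, 294 and 550 CPM in KO on chow, and at 248, 302, 312 and 334.9 CPM in WT and 379, 362, 435 and 420 CPM in KO on HFMCD. No KO library overlapped a WT library of its diet. Cyp2c70 rose by 0.79 (SE 0.141, adjusted p = 0.0143) and passed with any 1 library left out. Members of the Cyp2c family can share reads. Of 27 genes of bile acid synthesis and transport, 3 fell (Acox2, Scp2 and Slc27a2, which act in side-chain activation or shortening) and Cyp2c70 rose. All genes tested had 0.995% called lower and 0.472% higher. Acox2 was not shared, and of the 4 Cyp2c70 alone was called without KO chow replicates 1 and 7. Without all 4 libraries rich in Dmbt1 the list had 1 higher call and 0 lower. Cyp2a4, a steroid hydroxylase with a near-identical copy, rose by 0.86 (SE 0.157, adjusted p = 0.0143), from a median of 257 to 477 CPM on chow.

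Further shared lower genes, chosen after their values were seen except for Bhmt2, had a range of functions. Of the metabolic lists, 0 of 20 genes of glucose handling and 1 of 26 of methionine, one-carbon and choline metabolism (Bhmt2) were called. Over all genes tested 1.47% were called. Cpox, the oxidase of coproporphyrinogen in haem synthesis (chromosome 16, 58670292 to 58717636, plus strand, GRCm38), was at 214, 234 and 288 CPM in WT and 146, 182 and 202 CPM in KO on chow. On HFMCD it was at 198, 167, 169 and 144 CPM in WT and 137, 107.6, 129 and 105.4 CPM in KO. All KO libraries were below all WT libraries of their diet, with a log2 fold change of -0.45 (SE 0.0715, adjusted p = 0.00541). Summed erythroid markers on chow ranged over 37.8 to 108.5 CPM (WT) and 43.98 to 197 CPM (KO), and their part in the result was not tested.

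Hykk, the kinase of hydroxylysine, was at 96.7, 109 and 154 CPM in WT and 58.1, 83.6 and 92.6 CPM in KO on chow, and at 79.6, 84.9, 89.3 and 100 CPM in WT and 67.3, 62.9, 75.6 and 68.5 CPM in KO on HFMCD. It did not overlap on either diet and fell by 0.47 (SE 0.0846, adjusted p = 0.0134). Slc6a16, an orphan member of a transporter family, was at 3.12, 3.47 and 5.65 CPM in WT and 1.47, 1.92 and 3.08 CPM in KO on chow, and at 1.94, 1.99, 1.77 and 1.66 CPM in WT and 1.03, 0.956, 0.724 and 0.831 CPM in KO on HFMCD. It fell by 0.96 (SE 0.145, adjusted p = 0.00488), again without overlap. Ppa1, the cytosolic pyrophosphatase (-0.41), Bhmt2, a methyltransferase that remakes methionine (-0.44), Suox, sulfite oxidase (-0.34), Gcgr, the glucagon receptor (-0.29), Fgf1, a growth factor (-0.41), and Sec16b, a scaffold of endoplasmic reticulum exit sites (-0.33), were shared as well and passed with any 1 library left out.

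Genes of dividing cells were mostly higher but seldom called. Hells, a chromatin remodeller needed for DNA methylation (chromosome 19, 38930915 to 38971051, plus strand, GRCm38), was at 1.47, 1.69 and 2.24 CPM in WT and 2.42, 3.04 and 7.23 CPM in KO on chow. On HFMCD it was at 1.73, 1.80, 1.25 and 1.18 CPM in WT and 2.62, 1.99, 3.11 and 4.23 CPM in KO. The groups were apart on both diets, and Hells rose by 1.04 (SE 0.183, adjusted p = 0.0122). Ncaph, a condensin subunit, rose by 1.08 (SE 0.206, adjusted p = 0.0143), and both passed with any 1 library left out. Topbp1, which signals stalled replication, rose by 0.32 (SE 0.0754, adjusted p = 0.0358). Of 26 cell cycle and replication genes Hells alone was called, beside 1.47% of all genes tested. Positive on both diets were 21 of the 26 (29.6% of all genes tested). The median was 0.26, or 0.27 without KO chow replicates 1 and 7.

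The chow values of matrix genes moved when these 2 libraries were left out. Of 37 extracellular matrix genes 0 were called, beside 1.47% of all genes tested. Positive on both diets were 30 of the 37, beside 29.6% of all genes tested. The medians were 0.36 on chow and 0.42 on HFMCD. Without KO chow replicates 1 and 7 the median on chow was -0.09 and 9 of the 37 were positive on both diets. In KO chow replicates 1 and 7, as given above, Dmbt1 was high. Summed markers of mesothelium reached 21.7 CPM in KO chow replicate 1 against a KO chow median of 5.12 CPM. Summed smooth muscle markers reached 300 CPM in KO chow replicate 7 against a median of 105.5 CPM. Their part in the matrix values was not tested. Of 21 cholangiocyte markers 16 were positive on both diets, beside 29.6% of all genes tested. Their median on chow was 0.17, or -0.33 without the 2 libraries and -0.19 without the 4, against 1.5 on HFMCD.

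**Figure D5:**
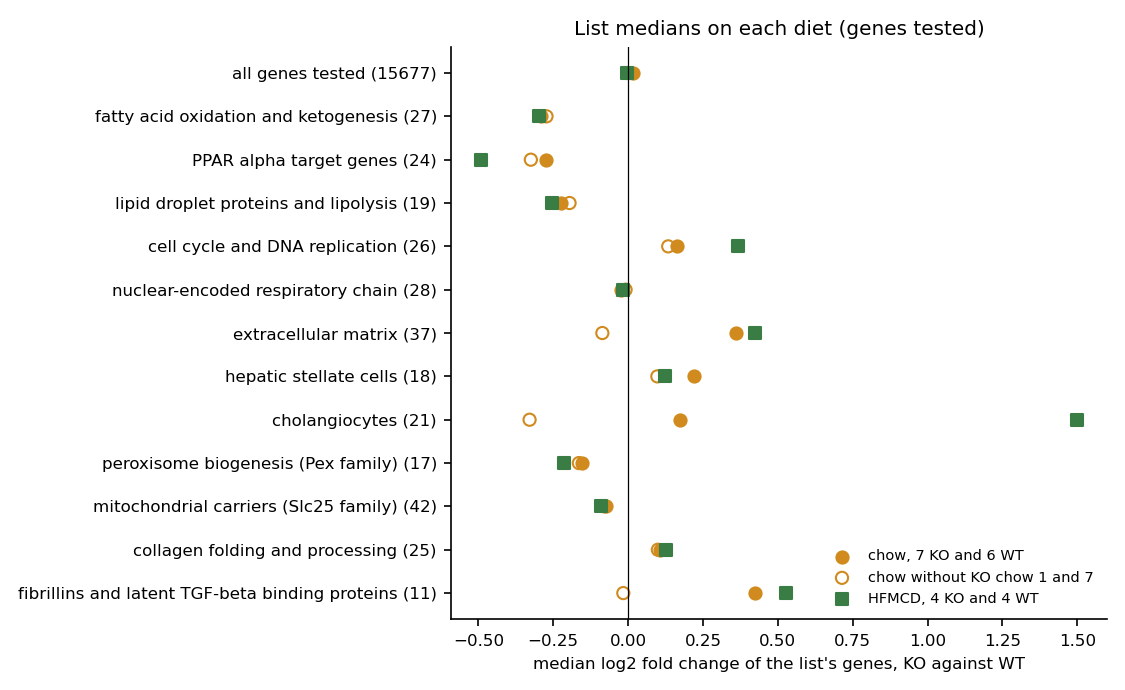
Median log2 fold change of KO against WT for the tested genes of each list (number in brackets) on chow (filled circles), on chow without KO chow replicates 1 and 7 (open circles) and on HFMCD (squares). The oxidation list stays near -0.3 throughout, whereas the matrix and cholangiocyte lists move below 0 on chow without the 2 libraries. Without the 4 libraries rich in Dmbt1, not drawn, the matrix median on chow was 0.055.

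Of 25 genes of collagen folding and processing, a list drawn up after the calls were seen, 5 rose (Crtap, Ctsk, Fkbp10, Pcolce and Serpinh1; 0.472% of all genes tested were called higher). Fkbp10 was not shared, and 1, Pcolce, was called without KO chow replicates 1 and 7. Without all 4 libraries rich in Dmbt1 the list had 1 higher call and 0 lower. Pcolce, which speeds removal of the procollagen C-terminal end (chromosome 5, 137605103 to 137613784, minus strand, GRCm38), was at 2.46, 3.69 and 4.37 CPM in WT and 4.47, 5.18 and 6.25 CPM in KO on chow. It was at 15.6, 17, 15.7 and 14.8 CPM in WT and 19.1, 21.4, 20.4 and 22.8 CPM in KO on HFMCD. No libraries overlapped on either diet, and Pcolce rose by 0.50 (SE 0.0953, adjusted p = 0.0143), or 0.44 without the 2 libraries. Fbn2, fibrillin-2, was at 0, 0.0524 and 0.107 CPM in WT and 0, 0.179 and 0.639 CPM in KO on chow, and at 0.906, 1.17, 0.968 and 0.527 CPM in WT and 3.22, 4.71, 2.39 and 3.70 CPM in KO on HFMCD. It overlapped on chow and not on HFMCD, with a KO term of 1.98 (SE 0.397, adjusted p = 0.02) and, on chow without the 2 libraries, a log2 fold change of 0.82. Pdgfd, a platelet-derived growth factor, rose by 0.68 (SE 0.144, adjusted p = 0.0248), and Serpinh1, the collagen chaperone, rose by 0.47 (SE 0.111, adjusted p = 0.0346). Without the 2 libraries neither was called.

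The remaining shared genes named by size were less stable. Higher in KO were Adam11 (0.80), Prss8 (0.75), Ddit4l (0.67), Sept6 (0.65), Itga8 (0.62), Ctsk (0.62), Flt3l (0.56), Rasa2 (0.51) and Ccdc88a (0.47). Lower were Cntnap1 (-1.68), Aqp4 (-1.46), Cgref1 (-1.41), Them7 (-0.94), Unc79 (-0.83), Fam47e (-0.77), Chrna2 (-0.76), Nlrp12 (-0.69), Fam169b (-0.56), Dhx58 (-0.49) and Mug1 (-0.49). Of these 20, Cntnap1, Ddit4l and Fam169b passed with any 1 library left out, and of the 20 Ddit4l alone was called without KO chow replicates 1 and 7. Aqp4, a water channel, was at 1.6, 2.91 and 8.55 CPM in WT and 0.595, 0.894 and 2.19 CPM in KO on chow, and at 24.8, 25.2, 23.0 and 18.8 CPM in WT and 13.6, 11.6, 7.82 and 13.3 CPM in KO on HFMCD. The libraries overlapped on chow and not on HFMCD. Mug1 has close copies that can share its reads.

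Of the 80 called genes that were not shared, 62 met the unadjusted p on chow only and 18 on HFMCD only. The 6 named here are those, at 2 CPM or more in the higher genotype of either diet, whose log2 fold changes differed most between the diets, and for 5 of them the value was larger on HFMCD. Akr1c18, a steroid dehydrogenase, was at 0 to 0.149 CPM in all chow libraries, and at 0.824, 0.274, 0.766 and 0.405 CPM in WT and 2.30, 3.79, 3.11 and 4.30 CPM in KO on HFMCD. Its KO term of 2.21 (SE 0.386, adjusted p = 0.0119) therefore rests mainly on the HFMCD libraries. Levels on chow were too low to show a change or its absence. The log2 fold change was positive on both diets and larger on HFMCD for Cdh6 (0.40 on chow and 1.95 on HFMCD) and Cldn7 (0.58 and 1.80). So it was for Kcnk1 (0.45 and 1.6) and Scube3 (0.83 and 1.96). Libraries of these genes overlapped on chow and not on HFMCD. Cidec, the sixth, went the other way, with -2.29 on chow and -1.01 on HFMCD. A difference between the diets was not called for any of these genes.

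The KO effect was also set beside the effect of HFMCD in the same model, which cannot be told apart from that of age. Of the 150 shared genes, 97 were called for diet in the direction of the KO effect and 23 in the other. Among the shared lower genes 63 were lower and 17 higher on HFMCD, and among the 44 shared higher genes 34 were higher and 6 lower. Over all genes tested 39.75% were called lower and 36.53% higher on HFMCD. Cpt1a was lower in KO and higher on HFMCD (0.29), and Scd1 and Cyp2a4 were higher in KO and lower on HFMCD (-2.31 and -2.67).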

How the data were processed

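RNA-seq of whole liver was analysed for 21 libraries in 4 groups. The authors deposited raw read counts per gene symbol, whole numbers with no normalization. Per the submitters' processing notes, featureCounts 1.6.1, STAR 2.6.1d and CASAVA 2.17 were used with GRCm38; no role is stated. The annotation release, strand setting and read filters are not given in the sources used here. All 55418 symbols were found in GENCODE release M21, which gave the positions. For 37 of 102 named genes an exon overlaps another gene on the opposite strand.

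Counts were fitted with edgeR 4.0.16 in R 4.3.3 (filterByExpr with 4 groups, TMM scaling, robust quasi-likelihood F test, two-sided, Benjamini-Hochberg adjustment over 15677 genes). The model held diet and genotype. Single-diet fits used the same genes, scaled within the diet. SE is the absolute log2 fold change over the square root of F. CPM used TMM-scaled totals. The difference between diets came from a fit with 4 group means. The method was tested on simulated data.

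Lists were described by counts and medians, with no set test. Members, lists and tests were chosen with earlier results of these data known. The rule for naming genes took Mboat7; the 14 highest and 14 lowest shared genes at 2 CPM or more, by the single-diet fold change nearer to 0, without clone names; up to 3 called members per list; and the 6 called genes whose fold change differed most between diets. It named 50, and the others were chosen after their values were seen. Some genes of the lists are counted but not reported here by name. Alternatives were DESeq2 1.42.0, limma-voom (limma 3.58.1) with quality weights, RLE and upper-quartile scaling, other low-count filters, equal weight of both diets, each diet alone, and leaving out libraries. Reads carry no molecular identifiers. In a pairwise check of libraries within groups no 2 were identical or agreed within sampling noise.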

Additional observations from a re-analysis of the deposited data

Results flagged for a closer look

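Some values stood apart from the other libraries of their group by Dixon's test at 95%, which chance flags in about 1 of 20 groups. Of 408 groups of values examined, 20 (4.9%) were marked. WT HFMCD replicate 4 was the lowest of its 4 libraries in 7 of these: Hsd17b4 (445 CPM), Creb3l3 (296 CPM), Acaa1b (461 CPM), Eci1 (98.8 CPM), Decr1 (199 CPM), Pcx (499 CPM) and Slc25a13 (220 CPM). It was thus nearer to KO than the other WT HFMCD libraries in genes that were called lower in KO. The other high values were Hells in KO chow replicate 6 (7.23 CPM), Rasa2 in WT chow replicate 3 (7.66 CPM), Flt3l in WT HFMCD replicate 1 (1.69 CPM), Cyp2c70 in KO chow replicate 2 (550 CPM), Ltbp2 in WT HFMCD replicate 1 (11.5 CPM), Slc6a16 in WT chow replicate 6 (5.65 CPM), Topbp1 in KO HFMCD replicate 4 (18.7 CPM) and Lrrc14b in KO chow replicate 7 (4.33 CPM). Low were Elovl3 in WT chow replicate 1 (3.81 CPM), Scube3 in WT HFMCD replicate 2 (0.352 CPM), Gcgr in WT chow replicate 3 (283 CPM), Slc25a10 in WT chow replicate 1 (192 CPM) and Zfhx2 in KO chow replicate 7 (15.1 CPM).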

How the results depend on the processing

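Mboat7 kept its direction and call in every alternative run (-0.85 to -0.80 with 1 library left out), and no named gene that was called changed sign over both diets. The alternatives reuse the libraries by which the genes were chosen, so the kept signs are a description. Against 230 genes called for the KO term (74 higher, 156 lower), DESeq2 called 647 (237 and 410), limma-voom 354 (183 higher), chow alone 2 (1 and 1), HFMCD alone 303 (224 and 79), no low-count filter 189 (42 higher), leaving out KO chow replicates 1 and 7 called 36 (13 and 23), and leaving out the 4 libraries rich in Dmbt1 called 87 (36 and 51). With 1 library left out the ranges were 47 to 360 called, 17 to 117 higher and 30 to 243 lower. The share of calls that were lower was 67.83%, 48.31% by limma-voom and 77.78% with no filter. Genes moved the same way on both diets (150) numbered 300 by DESeq2, 30 and 64 without the 2 and the 4 libraries, and 43 to 213 with 1 library left out. The both-diet test gave 2 genes by DESeq2. Oxidation genes called lower (13) numbered 0 on chow alone, 0 on HFMCD alone, 3 without the 2 libraries, 3 without the 4, and 4 to 18 with 1 left out. Calls on chow alone (2) numbered 490 by DESeq2, 44 with no filter, 1 without the 2 libraries, 6 without the 4, 1 without KO chow replicates 4 and 5 (chosen after seeing the data, for their erythroid transcripts), and 1 to 189 with 1 left out, the most without WT chow replicate 3. Calls on HFMCD alone (303) numbered 605 by DESeq2, 681 with no filter, and 136 to 311 with 1 left out, the fewest without WT HFMCD replicate 2. HFMCD calls with the same sign on chow (75.5%) made up 64.99% by limma-voom, 38.74% without the 2 libraries, 49.01% without the 4 and 58.28% to 80.09% with 1 left out. Genes chosen on chow with the same sign on HFMCD (65.9%) made up 61.16%, 59.29% and 61.54% to 70.13%. The difference between the diets gave 10 genes by limma-voom and 97 by DESeq2, against 0. The matrix median on chow (0.36) was -0.086 without the 2 libraries and 0.055 without the 4. The cause of these shifts was not tested. The median of all genes was at most 0.0217 in size under any alternative, against 0.00768 in the model reported. A sex term was not run, since every library held Xist reads. No paired analysis was possible because the groups share no replicate numbers in the titles.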
